A study of Mus musculus with 4 samples.

Results

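Mesothelial cell genes were examined as a set of 10 genes: Msln, Upk3b, Upk1b, Wt1, Krt19, Krt8, Krt18, Lrrn4, Pdpn and Gpm6a. They were chosen by symbol, as genes of the peritoneal mesothelium, and all 10 have a row among the 24625 gene rows of the count tables. The tables hold peritoneal cells, labelled peritoneal macrophages, of C57BL/6 mice (C57BL/6J in the series' design text), with no engineered allele named in the labels. The high-fat group was fed a diet with 60% of its energy as fat for 12 weeks, and the control group standard chow for the same 12 weeks. Mice of both groups were injected intraperitoneally with 3% thioglycollate medium, which irritates the cavity and recruits macrophages, and cells were taken from them 4 days later. There were 2 libraries per diet. The labels say nothing of separate mice, pooled mice, sex or age, so a p-value speaks for the spread among these libraries alone, and that spread may be technical in part.

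The mesothelium is the single layer of flat cells that lines the peritoneal wall and covers the abdominal organs. It arises from mesoderm, yet it carries epithelial features, among them keratin filaments, junctions and surface glycoproteins, and it secretes the film of fluid on which the organs glide. Mesothelial cells can detach into the peritoneal fluid, so a peritoneal lavage can hold some beside macrophages. Beneath them lie fibroblasts, which carry the receptor Pdgfra and secrete collagens and small proteoglycans, so the 10 genes were set beside a list of 15 fibroblast genes.

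Gene totals were 45658551 and 40527591 counts in high-fat replicates 1 and 2, and 39846646 and 39347347 counts in control replicates 1 and 2. Genes that mark macrophages were abundant in all 4 libraries. Their 6 measured members together held 19533 and 23921 CPM (a gene's share of its library's TMM-adjusted total, multiplied by 1000000) in high-fat replicates 1 and 2, against 26290 and 25186 CPM in the control replicates. The lysozyme gene Lyz2, the lysosomal gene Cd68 and Emr1, which encodes the macrophage surface protein F4/80, had the highest levels per length of these 6. Mesothelial genes other than Pdpn were close to the detection limit. None of these 9 genes exceeded 120 counts in any library. In RNA from a mixture of cells, more cells of a type and more RNA per cell cannot be told apart.

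RefSeq promoters, each running from 250 bases before to 50 bases after the annotated start, were at hand for 6 of the 10 genes: Upk3b, Krt8, Krt18, Lrrn4, Pdpn and Gpm6a. They are shown because they were the ones at hand, for Gpm6a the first listed promoter only. Upk3b, Lrrn4, Gpm6a and Pdpn were higher in both high-fat libraries than in both controls, and Krt8 and Krt18 were not. Coordinates of promoters are on GRCm38.p6, and those of gene models further on are on mm9. The Upk3b promoter lies at chr5:136038246-136038545 on the plus strand, the Lrrn4 promoter at chr2:132880813-132881112 on the minus strand and the first listed Gpm6a promoter at chr8:54779184-54779483 on the plus strand. The Krt8 promoter lies at chr15:102004293-102004592 on the minus strand, the Krt18 promoter at chr15:102027966-102028265 on the plus strand and the Pdpn promoter at chr4:143299515-143299814 on the minus strand. Capitals mark matches, on either strand, to any of 6 motifs that were searched.
Upk3b: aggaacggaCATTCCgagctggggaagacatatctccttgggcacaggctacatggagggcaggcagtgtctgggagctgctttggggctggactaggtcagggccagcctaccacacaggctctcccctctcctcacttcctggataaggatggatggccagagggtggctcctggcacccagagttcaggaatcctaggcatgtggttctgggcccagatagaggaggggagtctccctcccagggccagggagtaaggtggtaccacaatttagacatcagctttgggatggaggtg
Lrrn4: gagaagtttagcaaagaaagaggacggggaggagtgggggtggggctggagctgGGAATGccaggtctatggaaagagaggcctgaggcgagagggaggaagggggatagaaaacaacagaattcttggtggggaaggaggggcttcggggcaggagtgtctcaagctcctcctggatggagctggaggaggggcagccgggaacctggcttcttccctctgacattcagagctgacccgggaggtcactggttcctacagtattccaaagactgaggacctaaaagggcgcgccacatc
Gpm6a: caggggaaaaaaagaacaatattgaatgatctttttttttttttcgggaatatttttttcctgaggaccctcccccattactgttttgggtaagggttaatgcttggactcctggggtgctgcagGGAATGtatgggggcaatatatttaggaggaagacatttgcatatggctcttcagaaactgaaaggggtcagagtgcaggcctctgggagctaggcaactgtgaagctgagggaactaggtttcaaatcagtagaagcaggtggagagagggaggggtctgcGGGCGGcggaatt
Krt8: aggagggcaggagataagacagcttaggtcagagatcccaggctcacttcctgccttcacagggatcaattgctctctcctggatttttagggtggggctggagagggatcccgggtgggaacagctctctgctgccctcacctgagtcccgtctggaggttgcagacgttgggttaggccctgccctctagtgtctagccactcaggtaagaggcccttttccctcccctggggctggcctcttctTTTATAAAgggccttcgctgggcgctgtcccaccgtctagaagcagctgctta
Krt18: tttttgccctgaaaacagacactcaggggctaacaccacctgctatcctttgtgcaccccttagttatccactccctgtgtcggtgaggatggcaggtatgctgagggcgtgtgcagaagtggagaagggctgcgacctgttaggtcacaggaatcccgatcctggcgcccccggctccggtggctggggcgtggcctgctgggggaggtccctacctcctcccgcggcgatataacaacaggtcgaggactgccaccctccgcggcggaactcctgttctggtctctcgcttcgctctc
Pdpn: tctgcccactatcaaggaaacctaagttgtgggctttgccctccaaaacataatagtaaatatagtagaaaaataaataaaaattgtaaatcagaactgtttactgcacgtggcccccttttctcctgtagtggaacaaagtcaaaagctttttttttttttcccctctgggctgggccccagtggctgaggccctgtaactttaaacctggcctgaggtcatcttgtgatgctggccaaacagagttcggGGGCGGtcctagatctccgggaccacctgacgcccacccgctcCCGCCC

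The motif of TEAD factors, spelled GGAATG, was found in the Upk3b, Lrrn4 and first Gpm6a promoters, and in 14.7% of all 32851 promoters of that length. The TATA box was searched as TATAAA and occurred in 13.6% of all promoters. In the Krt8 promoter it had 2 overlapping matches, 1 on each strand, at the annotated start. The SP1 motif, spelled GGGCGG, had 2 matches in the Pdpn promoter and 1 in the first Gpm6a promoter, against 35.7% of all promoters with at least 1 match. The WT1 and EGR motif GCGGGGGCG had no match in the 6 printed promoters and occurs in 2.91% of all promoters. The PU.1 motif GAGGAAGT had none either and occurs in 3.2% of them. For AP-1, searched as TGANTCA, there was likewise no match here, and 7.81% of all promoters have it. The Krt18 promoter held none of the 6 motifs. These matches are letters in a window and say nothing of binding.

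The comparison of diets asks whether these low mesothelial transcripts differed with high-fat feeding. In high-fat replicate 1 each of the 9 genes other than Pdpn had its highest level. In high-fat replicate 2 the uroplakin genes Upk1b and Upk3b, the transcription factor gene Wt1 and the membrane protein genes Lrrn4 and Gpm6a were above both controls, while mesothelin and the keratins were not. Of the 10 genes 6 could be tested, and none of these was called different between the diets by edgeR.

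Mesothelin and the uroplakins are surface proteins. Msln encodes mesothelin, a glycoprotein anchored to the mesothelial surface by a lipid, and its model covers chromosome 17: 25885558 to 25891272 (mm9, minus strand, 16 exon blocks). It had 30 and 5 counts in high-fat replicates 1 and 2, against 11 and 3 counts in control replicates 1 and 2. High-fat replicate 1 was the highest library, and high-fat replicate 2 lay between the controls, so the diets overlapped. The log2 fold change of Msln, high-fat over control, was 1.15 ± 0.84 (SE; adjusted p = 0.512, edgeR quasi-likelihood test).

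Upk1b encodes a tetraspanin of the uroplakin family, first known from the plaques of the bladder lining, and lies on chromosome 16: 38773297 to 38800316 (minus strand, 8 exon blocks). It had 70 and 32 counts in the high-fat libraries, against 16 and 12 counts in the control libraries. Both high-fat libraries were above both controls, at 1.15 ± 0.500 CPM with high-fat diet and 0.353 ± 0.0625 CPM with control diet (SD, n = 2 per diet). By edgeR the log2 fold change was 1.71 ± 0.44 (SE), with an adjusted p = 0.112.

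Upk3b, a single-pass uroplakin used as a marker of mesothelium, lies on chromosome 5: 136514366 to 136520863 (plus strand, 6 exon blocks). It had 19 and 6 counts with high-fat diet, against 1 and 5 counts with control diet. These counts were too low for the filter on low values (about 0.249 CPM in at least 2 libraries), so Upk3b has no fold change or test. High-fat replicate 2, at 0.150 CPM, was barely above control replicate 2, at 0.129 CPM.

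The uroplakins that build the bladder plaque together with these proteins were near absent. Upk2 and Upk3a had 0 counts in all 4 libraries, and Upk1a had 3 and 2 counts with high-fat diet and 3 and 2 counts with control diet. The basal keratin Krt5 and the gut and bladder keratin Krt20 were also at 0 in all 4 libraries.

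Wt1 encodes a zinc finger transcription factor required for the mesothelium and the kidney to form, and its model covers chromosome 2: 104966686 to 105013771 (plus strand, 10 exon blocks). It had 44 and 16 counts in the high-fat libraries, against 5 and 9 counts in the control libraries. The diets did not overlap, and the high-fat libraries differed from each other by a ratio of 2.37. Wt1 averaged 0.674 ± 0.387 CPM with high-fat diet and 0.178 ± 0.0761 CPM with control diet (SD, n = 2 per diet), which edgeR fitted as a log2 difference of 1.92 ± 0.57 (SE; adjusted p = 0.159). Wt1 reached the filter's minimum only in the high-fat libraries, so its direction was set by that filter.

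Keratins 8, 18 and 19 are the filament proteins of simple epithelia. Krt8 and Krt18 pair into 1 filament and lie near each other on chromosome 15, Krt8 at 101827142 to 101834773 and Krt18 at 101858647 to 101862457. Krt8 had 31 and 5 counts with high-fat diet, against 9 and 6 counts with control diet. Krt18 had 23 and 2 counts with high-fat diet, against 1 and 2 counts with control diet. In both genes high-fat replicate 1 stood alone: high-fat replicate 2 was below both controls for Krt8 and, on the CPM scale, between them for Krt18. Krt19, on chromosome 11: 100002126 to 100007233, had 13 and 5 counts with high-fat diet and 9 and 6 counts with control diet, and its high-fat replicate 2 was also below both controls. None of these 3 keratin genes passed the filter. Reads of Krt8 and Krt18 can match pseudogene copies elsewhere in the genome, and reads aligned to more than 1 place are outside these counts, so both values are uncertain.

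Lrrn4 and Gpm6a encode membrane proteins also known from neurons. Lrrn4, a leucine-rich repeat protein used as a mesothelial marker, lies on chromosome 2: 132694252 to 132706598 (minus strand, 5 exon blocks). It had 41 and 13 counts in the high-fat libraries, against 2 and 8 counts in the control libraries. Both high-fat libraries were above both controls, and Lrrn4 too reached the filter's minimum only in the high-fat libraries. It had the highest fitted log2 fold change of the 6 genes tested, 2.24 ± 0.71 (adjusted p = 0.186, edgeR quasi-likelihood test).

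Gpm6a, a glycoprotein of the proteolipid family, lies on chromosome 8: 55864787 to 56146231 (plus strand, 8 exon blocks). It had 120 and 47 counts with high-fat diet, against 33 and 32 counts with control diet. The controls were nearly equal at 0.820 and 0.824 CPM, while the high-fat libraries stood at 2.59 and 1.18 CPM, both above the controls. On the log2 scale edgeR fitted a difference of 1.20 ± 0.40 (SE; adjusted p = 0.195).

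Pdpn encodes podoplanin, a mucin-like membrane glycoprotein of mesothelium, lymphatic endothelium and lymph node fibroblasts that inflammatory macrophages also make. Its model covers chromosome 4: 142857312 to 142889467 (minus strand, 6 exon blocks). It had 22365 and 19947 counts in the high-fat libraries, against 17757 and 16496 counts in the control libraries. Per kilobase of exon it stood at 262.0 and 271 CPM with high-fat diet and 239.9 and 231 CPM with control diet. No other of the 10 genes exceeded 0.852 CPM per kilobase in any library, so the lowest Pdpn level was 271 times the highest level of the rest. The diets did not overlap, with 490.5 ± 12.4 CPM on high-fat diet and 433 ± 11.5 CPM on control diet (SD, n = 2 per diet). The difference fitted by edgeR was small, a log2 fold change of 0.18 ± 0.10 (SE) with an adjusted p = 0.387. High-fat replicate 1 was at 0.965 times replicate 2, where the other 9 genes had ratios of 1.88 to 9.90. In abundance Pdpn was near Emr1, which had 301 and 297 CPM per kilobase with high-fat diet and 313 and 318 CPM per kilobase with control diet. Emr1 was slightly lower in both high-fat libraries, where Pdpn was higher (Emr1 log2 fold change -0.077, adjusted p = 0.737, edgeR). Of the 6 macrophage genes, 1 had a fitted log2 fold change above 0, Cd68 at 0.14 (adjusted p = 0.585, edgeR). The 6 macrophage genes had mean levels from 13.5 to 19493 CPM per kilobase, so a level near 1 of them says little. Here Pdpn does not track the other mesothelial genes, and which cells its reads came from was not tested. Of the lymphatic endothelial genes checked, Prox1 and Flt4 had at most 3 counts in any library, while Lyve1, a hyaluronan receptor that some macrophages also carry, had 66 and 239 counts with high-fat diet and 149 and 92 counts with control diet.

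**Figure D1:**
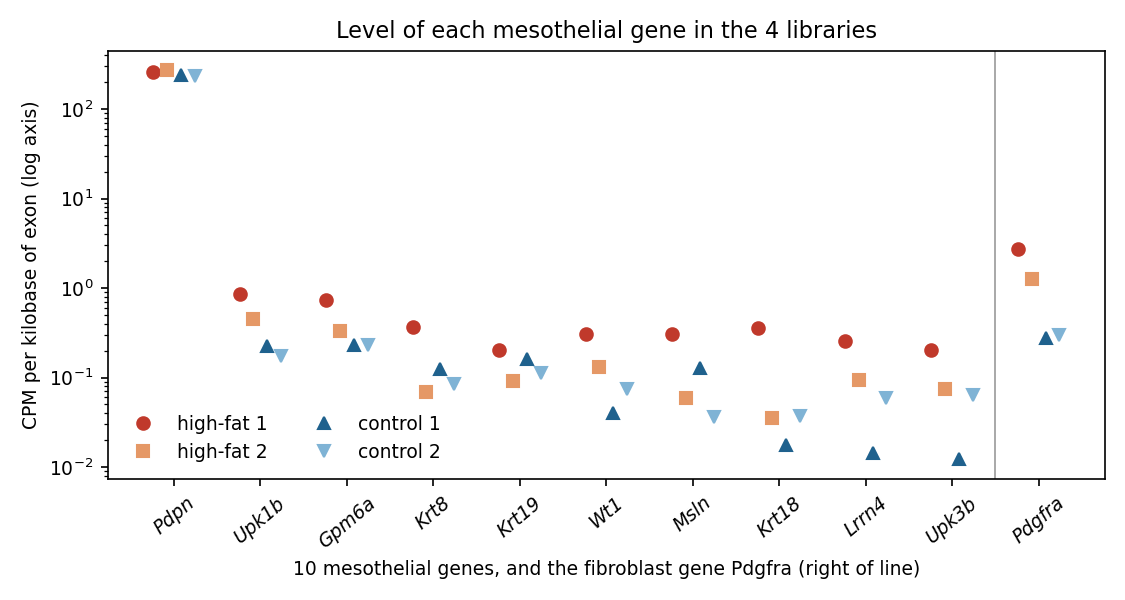
CPM per kilobase of exon (log axis) of the 10 mesothelial genes, ordered by mean level, and of the fibroblast gene Pdgfra, with 1 point per library. Pdpn lies between 231 and 271 CPM per kilobase, every other mesothelial gene is at or below 0.852, and high-fat replicate 1 is the highest library for all 9 of these.

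None of the 6 mesothelial genes that passed the filter was called at an adjusted p of 0.05 by edgeR, by DESeq2 or by limma-voom. Over the whole table edgeR called 78 of 12747 genes, 0.612%, of which 41 were higher (0.322%) and 37 lower. At an unadjusted p of 0.05, 4 of the 6 were higher, Upk1b, Wt1, Lrrn4 and Gpm6a, against 8.56% of all genes tested. The median log2 fold change of the 6 was 1.45, from 0.18 for Pdpn to 2.24 for Lrrn4, and that of all genes tested was -0.0054. Wt1 and Lrrn4 had to come out higher to be tested at all, so neither the median nor the count stands for all 10 genes. Both high-fat libraries were above both controls for 6 of the 10 genes, against 23.3% of all genes with a count. The 4 that overlapped were Msln and the 3 keratin genes.

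For the 9 genes other than Pdpn, the summed level in high-fat replicate 1 was 2.57 times that in high-fat replicate 2, and the high-fat mean was 2.72 times the control mean. High-fat replicate 1 was the highest of the 4 libraries for all 9 genes, with ratios to high-fat replicate 2 from 1.88 for Upk1b to 9.90 for Krt18. Msln and Krt8 had ratios of 5.16 and 5.34, and Upk3b, Lrrn4, Wt1, Krt19 and Gpm6a had 2.73, 2.71, 2.37, 2.24 and 2.20. The ratio was at least 2 for 4 of the 5 tested genes other than Pdpn. Among all tested genes with no count above 120 it was at least 2 for 5.98%. High-fat replicate 2 was above both controls for Upk1b, Wt1, Lrrn4 and Gpm6a, and barely so for Upk3b. It was below both for Krt8 and Krt19, and between them for Msln and Krt18. How many of all genes were highest in high-fat replicate 1, or above both controls in replicate 2, was not counted.

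Summed, the 9 genes had 391 and 131 counts in high-fat replicates 1 and 2, against 87 and 83 counts in control replicates 1 and 2. On the CPM scale the sums were 8.42 (95% exact Poisson interval 7.61 to 9.30) and 3.28 (2.74 to 3.89) with high-fat diet. In the controls they were 2.16 (1.73 to 2.67) and 2.14 (1.70 to 2.65). These intervals cover counting error only. High-fat replicate 1 was at 3.92 times the control mean and high-fat replicate 2 at 1.53 times. The sums averaged 5.85 ± 3.64 CPM with high-fat diet and 2.15 ± 0.0165 CPM with control diet (SD, n = 2 per diet), so the SD between the high-fat libraries was close to the difference between the diets.

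Fits without a high-fat library gave different pictures. Without high-fat replicate 2, edgeR called 5 of the 10 mesothelial genes higher, Upk1b, Wt1, Lrrn4, Gpm6a and Krt18, where 2.13% of all genes tested were called higher. The fitted log2 difference of Upk1b was then 2.08 ± 0.44 (SE; adjusted p = 0.0002, edgeR). Krt18, with 23 counts against 1 and 2 in the controls, had an adjusted p = 0.0039 in that edgeR fit. Krt18, Wt1 and Lrrn4 had fewer than 10 counts in both controls and were tested there only because high-fat replicate 1 was high, so the count of 5 stands for no more than that library. Without high-fat replicate 1 the fitted log2 fold changes of Upk1b, Lrrn4, Wt1 and Gpm6a were lower than with all libraries, at 1.17, 1.34, 1.16 and 0.52. That of Pdpn was 0.21. The log2 fold change of Msln then turned to -0.49. Each of these fits compares 1 high-fat library with the controls and takes its spread from theirs.

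**Figure D2:**
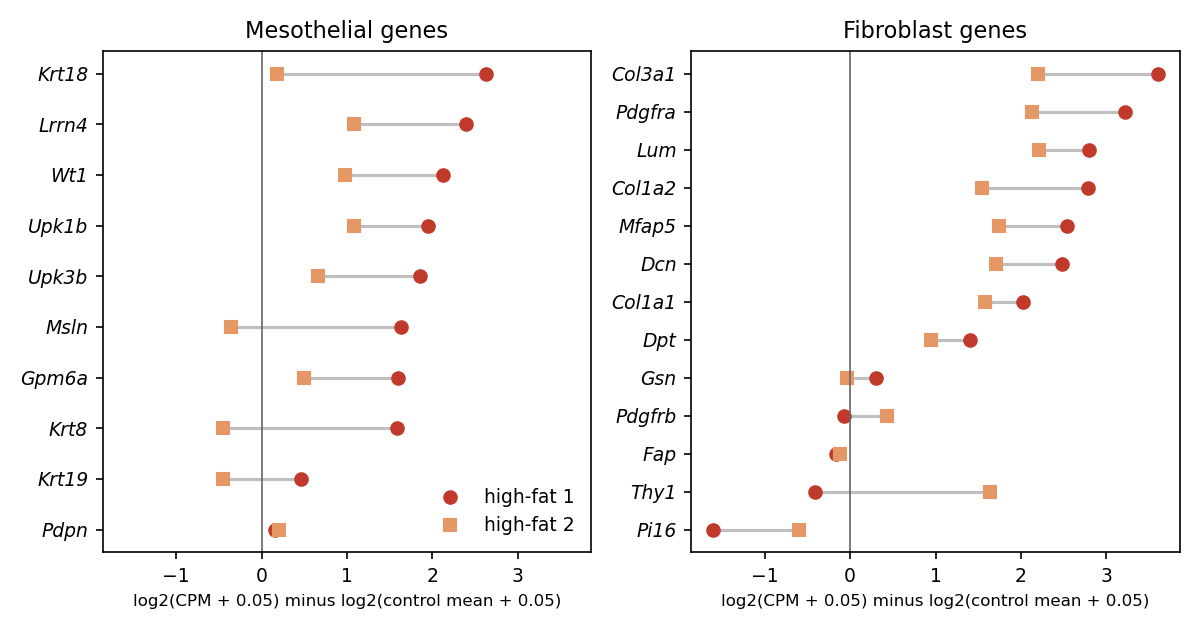
Difference of each high-fat library from the control mean, as log2 of CPM plus 0.05, for the mesothelial and the fibroblast genes with at least 10 counts in all. For the mesothelial genes other than Pdpn, high-fat replicate 1 lies to the right of high-fat replicate 2. The latter is left of 0 for Msln, Krt8 and Krt19. Of the fibroblast genes, Col3a1, Pdgfra and Lum lie far right of 0 in both. Fap and Pi16 lie left of 0 in both, and Thy1, Pdgfrb and Gsn have 1 library on each side.

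Fibroblast genes were compared in the same libraries. Pdgfra, one of the receptors of platelet-derived growth factors, had 858 and 344 counts in the high-fat libraries, against 75 and 78 counts in the control libraries. High-fat replicate 2 thus stood well clear of the controls. It did not for the mesothelial keratins, which had 31 counts or fewer in every library. High-fat replicate 2 was also above both controls for Upk1b, Wt1, Lrrn4 and Gpm6a. For Upk3b it was barely so, and for Msln it lay between them. The log2 fold change of Pdgfra by edgeR was 2.81 ± 0.41 (SE), and the adjusted p = 0.068 missed the threshold. Its exons share 30 bases with a microRNA gene on the same strand, Mir7025.

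Per kilobase of exon, Pdgfra stood at 2.74 and 1.28 CPM with high-fat diet and 0.277 and 0.298 CPM with control diet. In both high-fat libraries it was above every mesothelial gene but Pdpn, and in control replicates 1 and 2 it was close to Gpm6a, at 0.231 and 0.232 CPM per kilobase.

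Among the secreted matrix genes, Dcn and Col3a1 were above Pdgfra per kilobase of exon in every library, and Lum was below it. Dcn, encoding the proteoglycan decorin, had 3801 and 1909 counts with high-fat diet, against 439 and 709 counts with control diet. Col3a1, a fibrillar collagen chain, had 2306 and 750 counts with high-fat diet, against 156 and 164 counts with control diet. Col1a2, a chain of type I collagen, had 719 and 261 counts with high-fat diet, against 93 and 81 counts with control diet. In all 3 the diets were separate, with adjusted p = 0.178, 0.197 and 0.13 for Dcn, Col3a1 and Col1a2 by edgeR. Lum, encoding the proteoglycan lumican, rose, with 83 and 47 counts in high-fat libraries against 8 and 9 in control libraries (log2 fold change 2.77 ± 0.41, adjusted p = 0.031, edgeR quasi-likelihood test). Lum reached the filter's minimum only in the high-fat libraries, so it could be tested only as higher.

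Lum was the only 1 of 12 tested fibroblast genes that edgeR called. DESeq2 called 5, Pdgfra, Dcn, Col3a1, Col1a2 and Lum, and 0 of 6 mesothelial genes, where 1.3% of all genes were called higher. The fibroblast median log2 fold change was 2.09, and 2 of the 12, Lum and Mfap5, reached the filter's minimum only with high-fat diet, so the direction of both was set by it. Without high-fat replicate 1, 7 of 12 fibroblast genes were called higher by edgeR, and without high-fat replicate 2 also 7, where 3.39% and 2.13% of all genes tested were called higher. The mesothelial counts in these fits were 0 and 5. The count was 0 for both lists without control replicate 1, where 0.0609% of all genes tested were called higher, and without control replicate 2, where 0.0379% were. Gsn, encoding the actin-severing protein gelsolin, which macrophages also make, had 4536 and 3080 counts with high-fat diet and 3257 and 3024 counts with control diet. Both high-fat libraries were above both controls for 8 of the 15 fibroblast genes, against 23.3% of all genes with a count. Pdgfrb had 15 and 19 counts with high-fat diet and 15 and 12 with control diet. Fap had 29 and 26 counts with high-fat diet and 25 and 31 with control diet. Pi16 was lower, at 0 and 2 counts with high-fat diet against 3 and 5 with control diet.

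**Figure D3:**
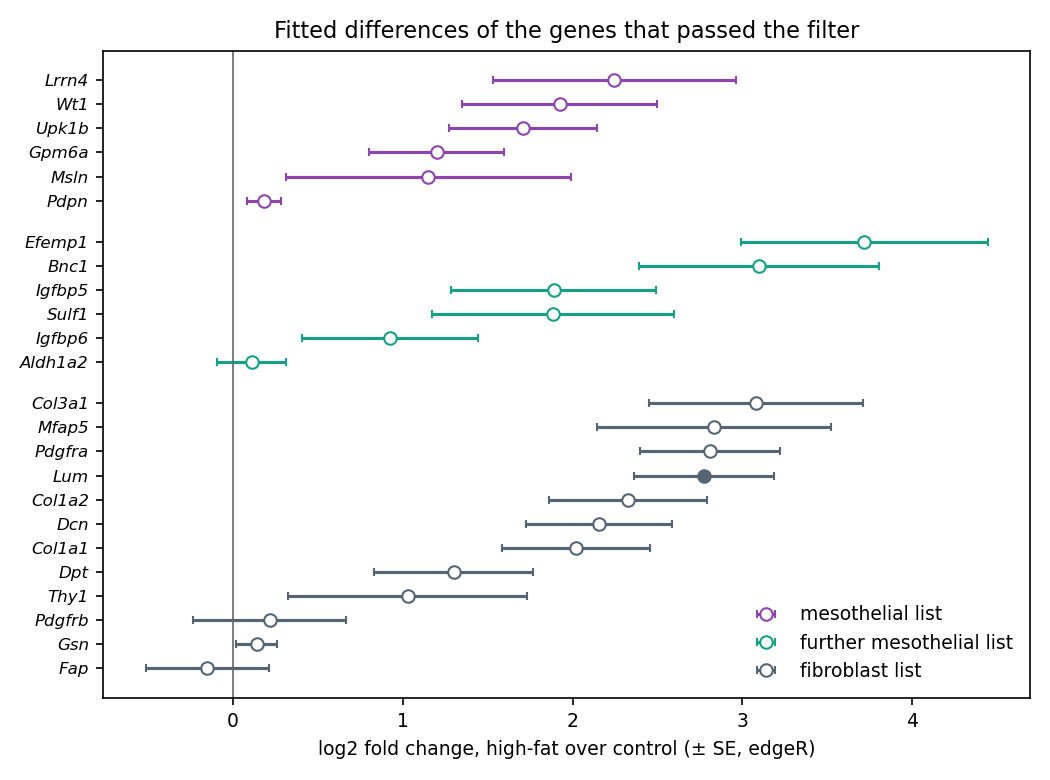
Fitted log2 fold change, high-fat over control, with its standard error for every gene of the mesothelial, further mesothelial and fibroblast lists that passed the filter. Filled points are called at an adjusted p of 0.05, and only Lum is filled. Lrrn4 at 2.24 heads the mesothelial list and Pdpn at 0.18 ends it.

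The ratio of the 2 groups of genes within a library needs no scaling between libraries. Over all 10 mesothelial and 15 fibroblast genes, mesothelial counts made up 64.6% and 75.4% in high-fat replicates 1 and 2, against 81.2% and 80.0% in control replicates 1 and 2. The mean was 70.0 ± 7.65% with high-fat diet and 80.6 ± 0.868% with control diet (SD, n = 2 per diet; exact two-sided permutation p = 0.333, the smallest that 2 against 2 libraries allow). Pdpn supplied nearly all of these mesothelial counts.

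Without Pdpn the share was 3.04% (95% Clopper-Pearson interval 2.75 to 3.35) and 1.96% (1.64 to 2.32) with high-fat diet. In the controls it was 2.07% (1.66 to 2.55) and 1.97% (1.57 to 2.43). High-fat replicate 1 had the highest share. These intervals also cover counting error only. Pooled over all genes with at least 10 counts, libraries of 1 diet differed by far more than that (chi-square per degree of freedom 34.9 for high-fat and 33.8 for control). That figure was not computed for these low sums alone, so it gives no factor for their intervals. Without Pdpn the difference between the diets changed sign (exact permutation p = 1, two-sided). Gsn made up most of the fibroblast counts in the controls. With Gsn and Thy1, which blood cells also express, left out as well, the share was 4.70% (4.25 to 5.17) and 3.68% (3.08 to 4.35) in high-fat libraries. It was then 9.29% (7.51 to 11.3) and 6.99% (5.60 to 8.59) in control libraries, above both high-fat libraries (exact permutation p = 0.333, two-sided). That last choice of genes was made after the data were seen. The sum of the 13 remaining fibroblast genes was 6.90 and 3.47 times the control mean in high-fat replicates 1 and 2, against 3.92 and 1.53 times for the 9 mesothelial genes. For all 15 fibroblast genes it was 2.57 and 1.57 times. In high-fat replicate 1 the order of the 2 lists thus depended on leaving out Gsn and Thy1. The difference between the diets in the mesothelial share could not pass a threshold of 0.05 with 2 libraries each.

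**Figure D4:**
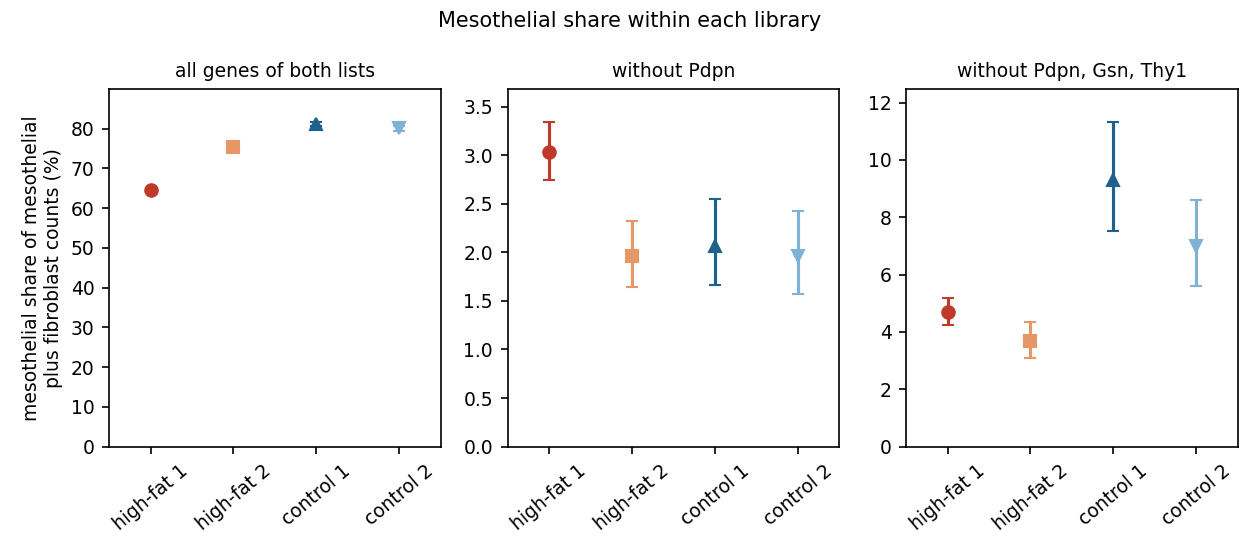
Mesothelial share of mesothelial plus fibroblast counts in each library, with 95% Clopper-Pearson intervals, for all genes of both lists, without Pdpn, and without Pdpn, Gsn and Thy1. Each vertical axis starts at 0 and has its own scale. Without Pdpn high-fat replicate 1 is highest at 3.04%, and without all 3 genes both high-fat libraries, at 4.70% and 3.68%, are below both controls.

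Further genes of mesothelium, from a second list of 13 of which 12 have a row, had 6 genes that passed the filter. None of these 6 was called by edgeR or limma-voom, and DESeq2 called 1, Efemp1, where it called 1.3% of all genes higher. By edgeR 4 were higher at an unadjusted p of 0.05, Bnc1, Efemp1, Igfbp5 and Sulf1, against 8.56% of all genes tested. Bnc1, Efemp1 and Igfbp5 reached the filter's minimum only in the high-fat libraries, so they had to come out higher to be tested, and neither count stands for the list. Aldh1a2, an enzyme of retinoic acid synthesis, was the most abundant, with 249 and 161 counts in high-fat libraries and 173 and 172 counts in control libraries, with a fitted log2 difference of 0.11. Efemp1, a matrix glycoprotein that fibroblasts also make, had 85 and 22 counts with high-fat diet, against 3 and 4 counts with control diet. Sulf1, a heparan sulphatase, had 85 and 16 counts with high-fat diet, against 12 counts in each control library. Nkain4, a small membrane protein, had 13 and 3 counts with high-fat diet and 4 and 4 counts with control diet, and only high-fat replicate 1 was apart. Igfbp6, a binding protein for insulin-like growth factor, had 27 and 15 counts with high-fat diet, against 14 and 6 counts with control diet. Tm4sf5, a tetraspan membrane protein, had 8 and 5 counts with high-fat diet and 4 and 6 counts with control diet. Calb2, encoding calretinin, had 0 and 1 counts with high-fat diet and 0 in both control libraries. Summed, all 12 genes had 11.3 and 6.33 CPM with high-fat diet, against 5.52 and 5.51 CPM with control diet. Leaving out Aldh1a2 was not planned. Without it the 11 remaining genes summed to 5.97 and 2.30 CPM with high-fat diet and 1.22 and 1.08 CPM with control diet.

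Other cell types that keratins, uroplakins or podoplanin could mark were checked. The 10 urothelial and other epithelial genes summed to 9.35 and 8.81 CPM with high-fat diet, against 6.78 and 4.40 CPM with control diet, and 5 of them had no count in any library. Nearly all of this was Cdh1, encoding E-cadherin, with 418 and 322 counts in high-fat libraries and 256 and 158 counts in control libraries. The 7 smooth muscle and pericyte genes summed to 2.11 and 1.25 CPM with high-fat diet, against 0.795 and 0.670 CPM with control diet. Of these Acta2, encoding smooth muscle actin, had 56 and 26 counts with high-fat diet and 23 and 16 counts with control diet, and it was the only 1 of the 7 to pass the filter (adjusted p = 0.307, edgeR). Des, encoding the muscle filament protein desmin, had 28 and 9 counts with high-fat diet and 7 and 6 counts with control diet. Tagln, encoding the actin-binding protein transgelin, had 3 and 6 counts with high-fat diet and 1 and 3 counts with control diet, so not every member had the same order of libraries. Cnn1 was at 0 in every library. The 7 endothelial genes did not follow the same order of libraries, with 12.0 and 19.9 CPM on high-fat diet and 13.2 and 11.9 CPM on control diet. Lyve1, given above, had the highest mean level per length of these 7. Kdr, a receptor of vascular endothelial growth factor, came next, with 351 and 294 counts on high-fat diet and 252 counts in each control library. Pecam1, an adhesion molecule of endothelium and leukocytes, had 127 and 245 counts with high-fat diet, against 113 and 105 counts with control diet. Adipocyte genes were at or near 0, with Adipoq, encoding adiponectin, at 0 and 0 counts on high-fat diet and 0 and 2 counts on control diet. The part of these cell types in the mesothelial values was not tested, nor was that of the lower macrophage sum in high-fat replicate 1.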

How the data were processed

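Per the labels' protocols, ribosomal RNA was removed from total RNA of peritoneal macrophages before paired-end sequencing, in 4 libraries, 2 per diet. The authors deposited raw read counts per gene, 1 table per library, with no normalization. TopHat2 2.0.10, Cufflinks 2.1.1, HTSeq and mm9 are named in the submitters' processing notes; how reads were counted, by strand or not, was not given in the sources used here. Exon positions came from the deposited gene models on mm9, and no mesothelial gene shares exon bases with another model. The 5 summary lines, 52.5% to 62.8% of all lines' counts per library (37.5% to 48.5% for alignments at more than 1 place), stayed out of library sizes and tests. Gene totals ran from 39347347 to 45658551. Libraries of 1 diet differed by far more than sampling noise (chi-square per degree of freedom 34.9 for high-fat, 33.8 for control).

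Genes were kept by filterByExpr (minimum count 10, minimum total 15) and compared with edgeR 4.0.16 (TMM, robust quasi-likelihood fit, diet as the only term, 2 residual degrees of freedom), with Benjamini-Hochberg adjustment over 12747 genes. The fit was tested on simulated data with a fixed spread between libraries, where only genes above a minimum mean count were changed. That test does not cover the mesothelial genes of lowest counts. DESeq2 1.42.0, limma-voom (limma 3.58.1), RLE scaling, other filters, a replicate block and each library left out were the alternatives. The mesothelial genes and all lists were chosen with earlier results of these data known. All 10 mesothelial genes are named; of other lists the genes of highest mean level per kilobase are named, up to 6 for the fibroblast and further mesothelial lists and 3 for the rest, with Pdgfra and genes at 0 counts that bear on the label. Genes named beyond that (Thy1, Mfap5, Pdgfrb, Fap, Pi16, Bnc1, Igfbp5, Prox1, Flt4, Calb2, Cnn1 and those in the closing section) were chosen after their values were seen.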

Additional observations from a re-analysis of the deposited data

How the results depend on the processing

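The count of genes called over the whole table, 78, was 366 with DESeq2, 46 with limma-voom, 522 with no filter, 46 with a filter of 1 CPM in 2 libraries, and 15 to 831 with a library left out. The count of mesothelial genes called, 0, was 1 with no filter (Upk1b, adjusted p = 0.0219, edgeR) and 0 to 5 with a library left out. The fibroblast count, 1, was 5 with DESeq2, 3 with no filter and 0 to 7 with a library left out. The mesothelial median log2 fold change, 1.45, was 0.68 with the filter of 1 CPM, which keeps Pdpn and Gpm6a alone, and 0.84 to 1.97 with a library left out. The log2 fold change of Msln ran from -0.49 without high-fat replicate 1, where it reversed, to 2.28 without control replicate 1. In 50 of 56 refits of the 6 tested genes direction and side of the threshold held; 5 passed the threshold, 4 of them without high-fat replicate 2. The diet difference in mesothelial share, -10.6 percentage points, was 0.482 without Pdpn and -16.1 to -5.24 with a library left out. Same-numbered libraries deviated with r = 0.0888 over 12747 genes, a correlation from 2 pairs that cannot decide whether the numbers pair them. A replicate block called 113 genes, 0 of them mesothelial, and 1 fibroblast gene. Genes tested numbered 17380 with no filter, of which 255 were called higher. They numbered 11010 with the filter of 1 CPM, and 13051 to 13192 with a library left out. Causes other than fewer genes or libraries were not tested. Depth limits the keratins, Upk3b and Msln, which had 31 counts or fewer in every library.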

Other observations

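Thy1 and Epcam, from the marker lists, were highest in high-fat replicate 2, where 9 of the 10 mesothelial genes were highest in high-fat replicate 1. Both were chosen after their values were seen. Thy1, a surface glycoprotein of T cells and of some fibroblasts, had 10 and 42 counts in high-fat replicates 1 and 2, against 13 and 11 counts in control replicates 1 and 2. Epcam, an epithelial adhesion molecule, had 7 and 26 counts with high-fat diet, against 7 and 7 counts with control diet. Thy1 was not called by edgeR, and Epcam did not pass the filter.

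Bnc1, a zinc finger protein known from mesothelium and squamous epithelium, had 29 and 11 counts with high-fat diet, against 2 and 2 counts with control diet. Its log2 fold change was 3.10 ± 0.70 (adjusted p = 0.0849, edgeR quasi-likelihood test), a direction set by the filter, since it reached the minimum only in the high-fat libraries.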
